A study of Homo sapiens with 11 samples.

Results

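Purine nucleotides are built on phosphoribosyl pyrophosphate (PRPP), an activated ribose that PRPP synthetase makes from ribose 5-phosphate and ATP. In de novo synthesis, a series of enzymes assembles the purine ring on PRPP up to inosine monophosphate (IMP), which is then converted to AMP or, through IMP dehydrogenase, to GMP. In vertebrates several of the steps are carried by multifunctional proteins, and dividing cells such as HEK293T rely on the route for nucleic acid synthesis. The transcripts described here are the 10 genes of this route that were chosen by gene name: the PRPP synthetases PRPS1 and PRPS2, the IMP-forming enzymes PPAT, GART, PFAS, PAICS, ADSL and ATIC, and the IMP dehydrogenases IMPDH1 and IMPDH2. They are 10 of 58735 genes in the deposited table, and all 10 were among the 18368 genes that passed the filter on low counts.

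Poly(A) RNA sequencing was carried out on HEK293T, a human embryonic kidney cell line, 48 h after transfection. The groups were a control siRNA (3 libraries), an siRNA to NAE1 at 50 nM (siNAE1, 3 libraries), an siRNA to UBE2M at 70 nM (siUBE2M, 3 libraries) and an siRNA to URM1 at 60 nM (siURM1, 2 libraries), and no concentration is given for the control. The sample titles name a control siRNA, and the methods mention a non-targeting negative control for transfection. The control group is elsewhere named HKWT, however, so whether these 3 libraries came from transfected cells is uncertain. If they did not, transfection and knockdown cannot be told apart in the comparisons with control. NAE1 is a subunit of the E1 enzyme that activates NEDD8, UBE2M is an E2 for NEDD8, and URM1 is a ubiquitin-like protein that also serves in tRNA thiolation. The paper reports that NAE1, with its partner UBA3, and UBE2M also act as E1 and E2 in attaching URM1 to proteins. It asked how the transcriptomes after the loss of NAE1, UBE2M and URM1 compared. The siRNA concentration differed between the knockdowns, so concentration and target cannot be told apart. The libraries are labelled as biological replicates without saying how the cultures were separated, so the p-values measure the spread between these libraries.

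The libraries held 11733163 to 16321391 counts. Each targeted transcript was lowest in its own knockdown. NAE1 was at 20.3 to 22.6 FPKM (fragment counts scaled to gene length and library size) in control and 7.21 to 8.73 in siNAE1. UBE2M went from 141 to 146 FPKM down to 8.39 to 10.3 in siUBE2M, and URM1 from 11.5 to 12.5 down to 3.41 and 3.49 in siURM1. All 5 transcripts taken as markers of HEK293 cells (VIM, KRT8, KRT18, NEFM, PAX2) were detected, and several moved with the knockdowns. By edgeR 3 of the 5 were higher in siNAE1 and none lower, 1 was higher and 2 lower in siUBE2M, and all 5 were higher in siURM1, where 54.7%, 45.3% and 41.6% of all genes were called in siNAE1, siUBE2M and siURM1. NEFM was at 1.19 in siNAE1 and 1.19 in siURM1 on the log2 scale, and in siUBE2M VIM was at 0.95 and PAX2 at -0.90. The part of these changes in the results was not tested. Of 6 markers of other cell types, only COL1A1, a fibroblast collagen, passed the filter, at 1.68 to 2.94 FPKM (log2 fold change 0.38 ± 0.11 in siUBE2M, edgeR adjusted p = 0.0035, its part in the results was not tested), while ALB, APOA1, AFP and PTPRC stayed below 0.3 FPKM in every library and CD3E was at 0.

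In control cells the 10 transcripts covered a wide range of levels. IMPDH2 was the most abundant at 164 ± 7.59 FPKM (mean ± SD, n = 3), followed by PAICS at 71.0 ± 2.23. PRPS1 (58.5 ± 0.882) and ATIC (57.0 ± 2.94) came next, with ranges that overlapped, and then GART at 46.1 ± 2.41 and PFAS at 25.9 ± 1.71. PPAT (20.8 ± 1.08) and IMPDH1 (19.8 ± 0.718) also overlapped, PRPS2 was at 15.3 ± 0.238 and ADSL was lowest at 3.71 ± 0.113. The other neighbours in this order had separate ranges.

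**Figure D1:**
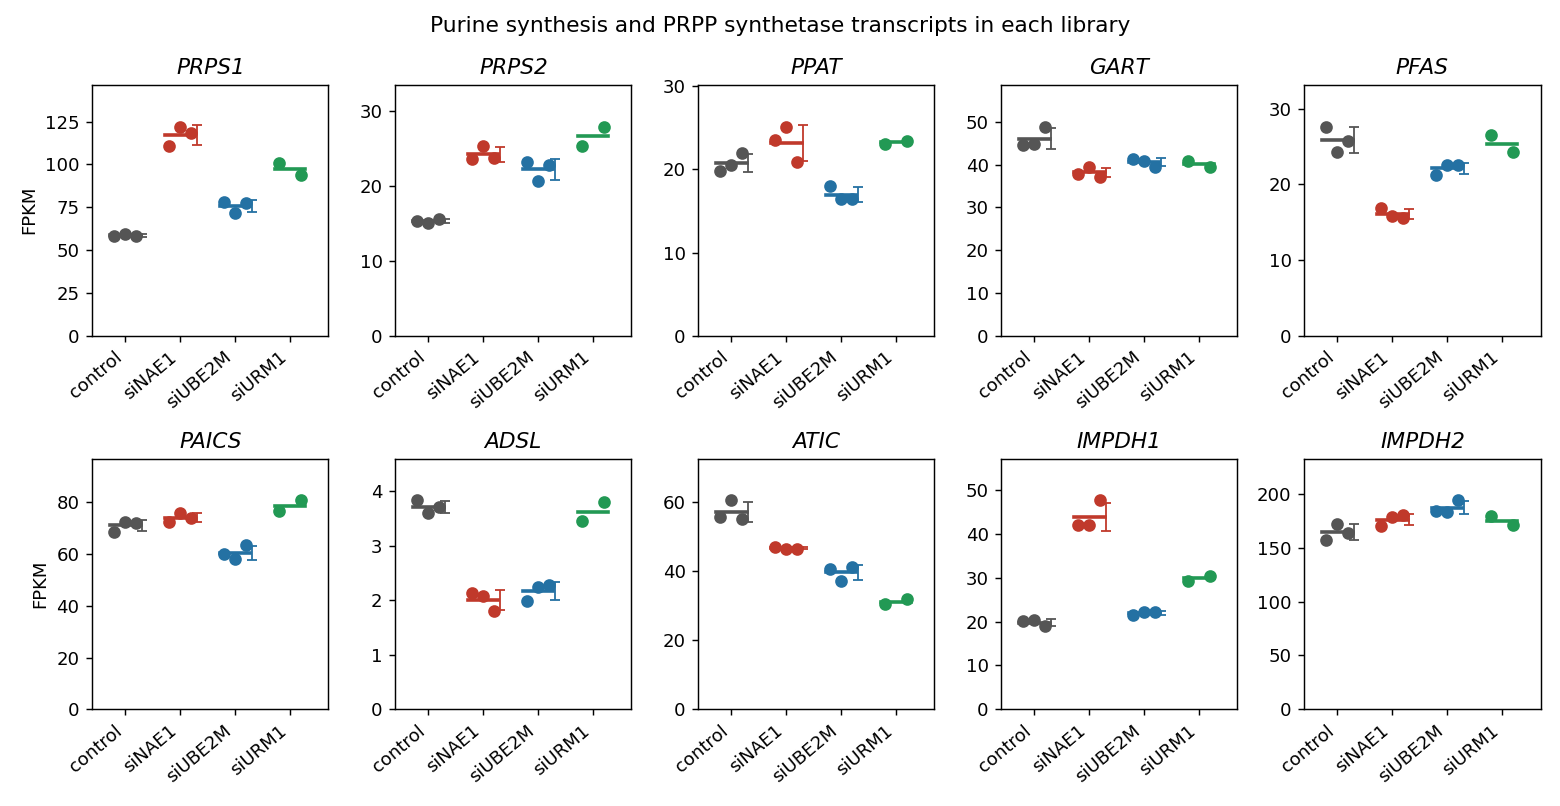
FPKM of the 10 transcripts in each library (y axis, from 0 and scaled per gene) in control, siNAE1, siUBE2M and siURM1 cells (x axis). Points are libraries, horizontal lines are group means and side bars are the SD of groups with 3 libraries. PRPS1, PRPS2 and IMPDH1 lie above control in all 3 knockdowns, ATIC and GART below it, and IMPDH1 separates siNAE1 from every other group.

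After NAE1 knockdown, 4 of the 10 transcripts rose, 4 fell and 2 did not pass the test (edgeR quasi-likelihood test, Benjamini-Hochberg adjusted p under 0.05). The same rule called 54.7% of all genes tested, 27.6% higher and 27.1% lower, so a call at this threshold was common among all genes. With a log2 fold change of at least 1 also required, which is the rule for differentially expressed genes (DEGs), 2 members passed, PRPS1 and IMPDH1, against 13.9% of all genes. That count was 1, IMPDH1, with DESeq2, with 2 groups per fit and without siNAE1 replicate 2 or 3. After UBE2M knockdown, 3 rose, 6 fell and 1 did not pass, against 45.3% of all genes (22.7% higher, 22.6% lower). In siURM1 cells 3 rose, 2 fell and 5 did not pass, against 41.6% (20.8% higher, 20.8% lower), so the share of members called there was near the background. No member was a DEG in siUBE2M, where 7.11% of genes were, or in siURM1, where 7.62% were. DESeq2 also gave 0 member DEGs in both. The median log2 fold change of the 10 was 0.09 in siNAE1, -0.20 in siUBE2M and 0.12 in siURM1, and the medians of all genes tested were -0.00, 0.01 and -0.02. All 3 comparisons share the same control libraries.

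**Figure D2:**
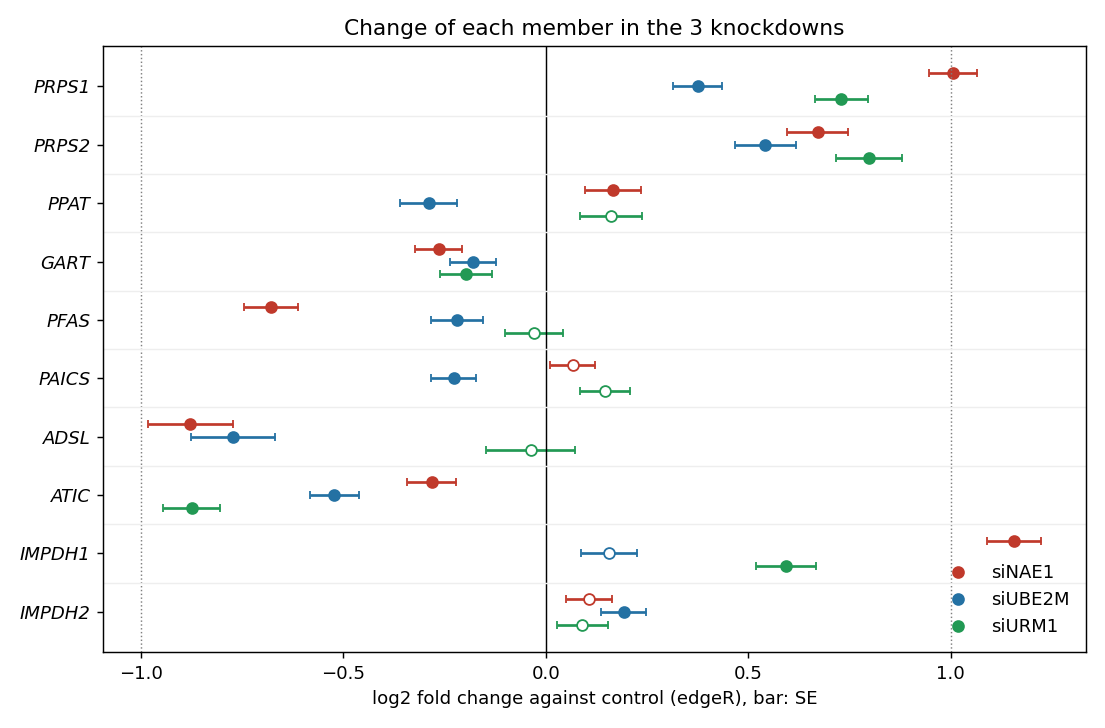
Log2 fold change against control (x axis, edgeR; bars are SE) of the 10 transcripts (y axis) in siNAE1, siUBE2M and siURM1 cells. Filled points have an adjusted p under 0.05, open points do not, and dotted lines mark a log2 fold change of 1 in either direction. PRPS1, PRPS2, IMPDH1 and IMPDH2 are right of 0 in every knockdown, though some IMPDH1 and IMPDH2 points are open. GART, ATIC, PFAS and ADSL are left of 0, and ADSL and PFAS lie near 0 in siURM1 only.

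The PRPP synthetases rose in all 3 knockdowns. PRPS1, on the X chromosome (GRCh38 X:107628424-107651026, plus strand), was at 57.9, 59.5 and 58.1 FPKM in control, 110, 122 and 118 in siNAE1, 77.9, 71.8 and 77.2 in siUBE2M and 101 and 93.5 in siURM1. No knockdown library overlapped the controls, and the 3 knockdowns did not overlap each other. Its log2 fold change was 1.01 ± 0.06 (SE; adjusted p = 3.1e-15) in siNAE1, 0.37 ± 0.06 (5.2e-06) in siUBE2M and 0.73 ± 0.07 (1.2e-10) in siURM1 by edgeR. The siNAE1 value ranged from 0.97 to 1.05 over the 16 alternative settings, and PRPS1 missed the DEG rule with DESeq2, with 2 groups per fit and without siNAE1 replicate 2 or 3. The direct tests placed siNAE1 above siUBE2M by 0.63 ± 0.06 (adjusted p = 2.8e-10) and above siURM1 by 0.28 ± 0.07 (0.0012, lost in 1 of 16 alternative settings), and siUBE2M below siURM1 by -0.36 ± 0.07 (7.1e-05).

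PRPS2 (X:12791355-12824222, plus strand), the second widely expressed isozyme, also rose in the 3 knockdowns. It was at 15.2, 15.1 and 15.5 FPKM in control, 23.6, 25.3 and 23.7 in siNAE1, 23.1, 20.6 and 22.8 in siUBE2M and 25.3 and 27.9 in siURM1. All 8 knockdown libraries were above all 3 controls. The log2 fold changes were 0.67 ± 0.08 (adjusted p = 4.8e-09), 0.54 ± 0.08 (4.7e-07) and 0.80 ± 0.08 (1.8e-09) by edgeR. siNAE1 did not differ from siUBE2M (0.13 ± 0.07, adjusted p = 0.16) or from siURM1 (-0.13 ± 0.08, 0.23) past the threshold, and siUBE2M was below siURM1 by -0.26 ± 0.08 (0.013), a call lost in 2 of 16 alternative settings (without siUBE2M replicate 2 or siURM1 replicate 2, adjusted p up to 0.19).

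With the 2 transcripts summed, the PRPP synthetase level was 73.8 ± 0.729 FPKM in control (n = 3), 141 ± 6.65 in siNAE1, 97.8 ± 4.67 in siUBE2M and 126 and 121 in the siURM1 libraries. PRPS1 made up 79.3% ± 0.464 of that sum in control, 82.8% ± 0.442 in siNAE1 and 77.3% ± 0.314 in siUBE2M, and these ranges did not overlap. In siURM1 the libraries were at 79.9% and 77.0%, on either side of the control range. An exact two-sided permutation test gave p = 0.10 for siNAE1 and for siUBE2M, the smallest that 3 libraries against 3 allow, and p = 0.80 for siURM1, where the smallest possible is 0.20.

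The proteins that bind PRPP synthetase in a complex were split. PRPSAP1, an associated protein regarded as a negative regulator of the enzyme, rose from 7.94 to 8.58 FPKM in control to 13.2 to 13.8 in siNAE1, 12.2 to 12.7 in siUBE2M and 11.9 and 12.6 in siURM1. Its log2 fold changes were 0.72 ± 0.07 (edgeR adjusted p = 1.2e-10), 0.60 ± 0.07 (9.1e-09) and 0.57 ± 0.07 (2.2e-07). PRPSAP2 moved the other way in siNAE1 (-0.37 ± 0.07, 7.2e-05) and siUBE2M (-0.28 ± 0.07, 0.0018) and was at -0.18 ± 0.08 in siURM1, which did not pass (0.074). PRPS1L1, the testis isozyme, was at 0 FPKM in every library.

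**Figure D3:**
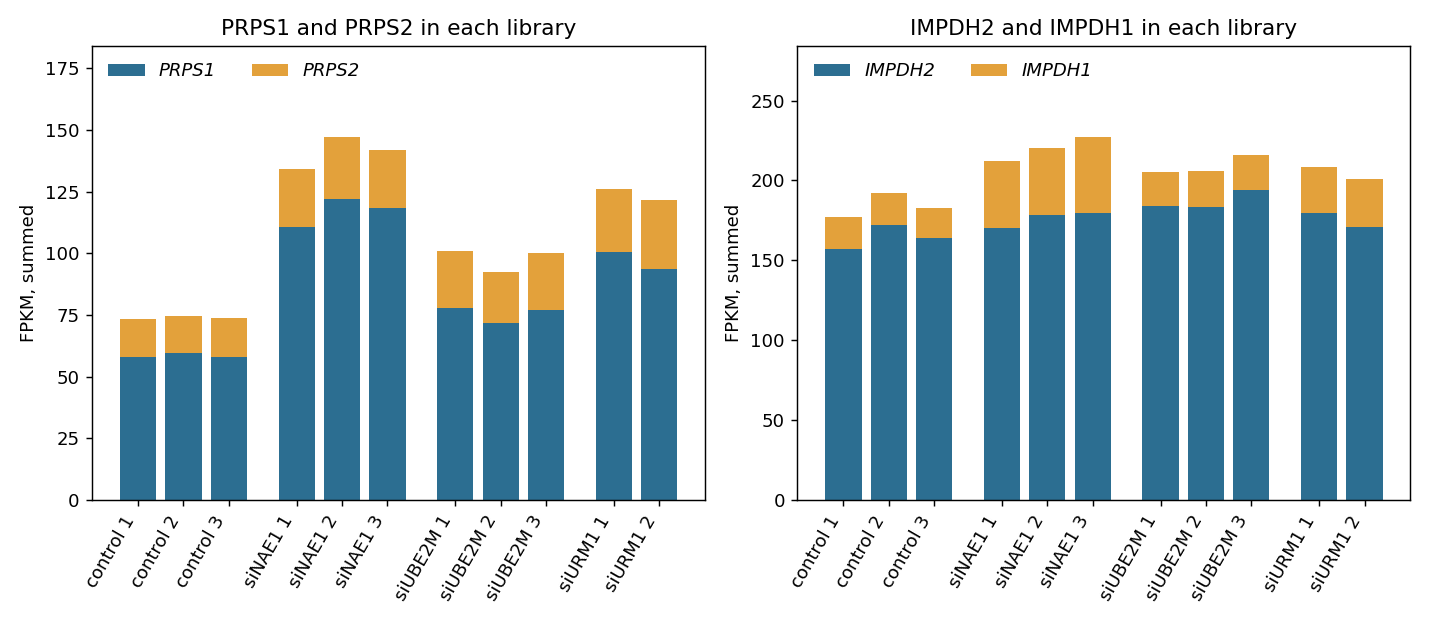
Summed FPKM (y axis, from 0) of PRPS1 and PRPS2 (left) and of IMPDH2 and IMPDH1 (right) in each of the 11 libraries (x axis), with the isozymes stacked. The summed PRPP synthetase bars are highest in siNAE1 at a mean of 141, against 73.8 in control, and the IMPDH1 part of the right-hand bars is largest in siNAE1.

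PPAT, which commits PRPP to purine synthesis, and PAICS, which carries the carboxylation and the following ligation, are neighbours on chromosome 4 and are read in opposite directions. In the deposited annotation PPAT spans 4:56393362-56435615 on the minus strand and PAICS 4:56435741-56464579 on the plus strand, with their starts 126 bases apart and no overlap. The stretch between them is printed because the fold changes of this pair had the same sign in each knockdown. It is 125 bases of GRCh38.p14, chr4:56435616-56435740, given on the plus strand from the RefSeq promoter entries, and capitals mark the motif GGGCGG (searched on both strands). RefSeq promoter windows, which run from 250 bases before to 50 after a start, held that motif on either strand in 45.0% of 35116 entries.
PPAT to PAICS: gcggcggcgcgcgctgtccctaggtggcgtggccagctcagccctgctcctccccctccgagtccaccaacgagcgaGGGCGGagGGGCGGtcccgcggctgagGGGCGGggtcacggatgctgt
The stretch has a GC content of 76% and holds the motif 3 times.

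PPAT fell in siUBE2M. It was at 19.8, 20.6 and 21.9 FPKM in control, 23.5, 25.1 and 20.9 in siNAE1, 18.0, 16.5 and 16.4 in siUBE2M and 23.1 and 23.4 in siURM1. The siUBE2M libraries were below every other library, while siNAE1 overlapped control. The log2 fold change was -0.29 ± 0.07 in siUBE2M (edgeR adjusted p = 0.0011) and 0.16 ± 0.08 in siURM1 (0.093, passing in 2 of 16 alternative settings). In siNAE1 it was 0.17 ± 0.07 with an adjusted p of 0.042, a call that was lost in 8 of 16 alternative settings, among them DESeq2 (0.070) and leaving out siNAE1 replicate 2 (0.27).
PAICS was at 68.4, 72.4 and 72.1 FPKM in control, 72.3, 75.7 and 73.9 in siNAE1, 60.1, 57.9 and 63.3 in siUBE2M and 76.5 and 80.6 in siURM1. Its siUBE2M libraries were again the lowest of all, with a log2 fold change of -0.23 ± 0.06 (adjusted p = 0.0011). The values in siNAE1 (0.07 ± 0.06, 0.32) and siURM1 (0.15 ± 0.06, 0.057) did not pass, although the siURM1 value passed in 5 of 16 alternative settings (adjusted p down to 0.021, with DESeq2).
The direct tests separated siUBE2M from both other knockdowns for both genes. PPAT in siNAE1 was 0.46 ± 0.07 above siUBE2M (adjusted p = 2.9e-06) and PAICS 0.29 ± 0.06 (5.6e-05), and siUBE2M was below siURM1 by -0.45 ± 0.08 for PPAT (2.5e-05) and -0.37 ± 0.06 for PAICS (1.4e-05). Among the 10467 genes whose mean reached 10 CPM (counts scaled to library size), PAICS was at rank 32 in likeness to PPAT, with a root mean square difference of 0.0945 between their centred log2 levels over the 11 libraries, and API5 (0.0622), EARS2 (0.0673) and LMBR1 (0.0716) were nearest.

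GART, the trifunctional enzyme that carries several early steps of the route, fell modestly in every knockdown. It lies at 21:33503931-33543491 on the minus strand. Its level was 44.5, 44.9 and 48.9 FPKM in control, 37.9, 39.4 and 37.2 in siNAE1, 41.4, 40.9 and 39.5 in siUBE2M and 40.9 and 39.5 in siURM1. All knockdown libraries were below all controls. The log2 fold changes were -0.26 ± 0.06 (edgeR adjusted p = 0.00023), -0.18 ± 0.06 (0.011) and -0.20 ± 0.06 (0.013), and no pair of knockdowns differed past the threshold (adjusted p from 0.24 to 0.85). Without control replicate 3 the siUBE2M and siURM1 calls were lost (adjusted p = 0.11 in each), and the siURM1 call was also lost without siURM1 replicate 2 (0.13), which made 2 of 16 alternative settings. The start of SON, on the opposite strand, lies within GART and their spans share 874 bases. SON was at 0.33 ± 0.07 in siNAE1 (0.00015), 0.01 ± 0.07 in siUBE2M (0.94) and -0.18 ± 0.08 in siURM1 (0.057), so the 2 genes had opposite calls in siNAE1.

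PFAS and ADSL fell in siNAE1 and siUBE2M, and neither passed the test in siURM1. PFAS (17:8247618-8270491, plus strand), which makes formylglycinamidine ribonucleotide, was at 27.6, 24.2 and 25.8 FPKM in control, 16.8, 15.9 and 15.6 in siNAE1, 21.3, 22.6 and 22.6 in siUBE2M and 26.5 and 24.3 in siURM1. The siNAE1 libraries stood well below all others and the siURM1 libraries fell within the control range. The log2 fold change was -0.68 ± 0.07 in siNAE1 (adjusted p = 2.4e-10), -0.22 ± 0.06 in siUBE2M (0.0061) and -0.03 ± 0.07 in siURM1 (0.78), by edgeR. siNAE1 was below siUBE2M by -0.46 ± 0.07 (9.8e-07) and below siURM1 by -0.65 ± 0.07 (1.5e-08). siUBE2M was below siURM1 by -0.19 ± 0.07 (0.039), which was lost in 5 of 16 alternative settings (adjusted p up to 0.35, without siURM1 replicate 1). The siUBE2M call was lost without control replicate 1 (adjusted p = 0.076) or siUBE2M replicate 1 (0.051). CTC1, whose span on the opposite strand shares 478 bases with PFAS, was at 0.28 ± 0.08 in siNAE1 (0.0038), 0.01 ± 0.08 in siUBE2M (0.95) and -0.10 ± 0.09 in siURM1 (0.41).

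ADSL (22:40346500-40390463, plus strand) acts both in IMP synthesis and in making AMP. It was at 3.83, 3.60 and 3.71 FPKM in control, 2.13, 2.07 and 1.80 in siNAE1, 1.98, 2.24 and 2.27 in siUBE2M and 3.45 and 3.79 in siURM1. The siNAE1 and siUBE2M libraries overlapped each other and lay below all control and siURM1 libraries. The log2 fold change was -0.88 ± 0.11 in siNAE1 (edgeR adjusted p = 1.8e-08), which left 54.4% of the control level, -0.77 ± 0.10 in siUBE2M (2.4e-07) and -0.04 ± 0.11 in siURM1 (0.82). Both were below siURM1 directly, by -0.84 ± 0.12 (6.7e-07) and -0.74 ± 0.11 (5.7e-06), and they did not differ from each other past the threshold (-0.11 ± 0.11, 0.47).
The ADSL values rest on 145 to 457 counts per library, the fewest among the members. On the same strand the deposited annotation has AL022238.4, whose span covers nearly the whole of ADSL and which held 34 counts over the 11 libraries, and SGSM3, with 1116. In GENCODE v44, 11.1% of ADSL exonic bases are shared with another gene of the same strand. How fragments lying in more than 1 gene were counted is not given in the sources used here, so the level of ADSL relative to the others is uncertain. The GENCODE v44 share for IMPDH2 is larger, at 32.8%, but no gene of the same strand overlapped it in the deposited annotation. There its span overlapped only AC137630.3, on the opposite strand, by 93 bases. SGSM3, which overlaps the 3′ part of ADSL, was at 0.53 ± 0.18 (0.012) in siNAE1, 1.41 ± 0.16 (1.8e-08) in siUBE2M and 0.09 ± 0.20 (0.76) in siURM1.

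ATIC, the bifunctional enzyme that completes IMP, fell in all 3 knockdowns and most in siURM1. Its gene lies at 2:215311817-215349773 on the plus strand. The levels were 55.4, 60.4 and 55.1 FPKM in control, 47.0, 46.5 and 46.5 in siNAE1, 40.5, 37.0 and 41.2 in siUBE2M and 30.4 and 31.8 in siURM1. The 4 groups did not overlap. Log2 fold changes against control were -0.28 ± 0.06 (edgeR adjusted p = 0.0002), -0.52 ± 0.06 (1.9e-08) and -0.87 ± 0.07 (9.1e-12), the last leaving 54.5% of control. Every step of that order passed a direct test, with siNAE1 above siUBE2M by 0.24 ± 0.06 (0.0017), siUBE2M above siURM1 by 0.35 ± 0.07 (0.00016) and siNAE1 above siURM1 by 0.59 ± 0.07 (3.8e-08). ATIC was the member with the largest fall in siURM1, whereas in siNAE1 and siUBE2M that member was ADSL.

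The IMP dehydrogenases, which make the rate-limiting conversion toward GMP, differed from each other. IMPDH1 (7:128392277-128410252, minus strand) was at 20.1, 20.2 and 18.9 FPKM in control, 41.9, 42.1 and 47.6 in siNAE1, 21.5, 22.1 and 22.2 in siUBE2M and 29.3 and 30.4 in siURM1. The siNAE1 libraries were above all others, the siURM1 libraries came next, and siUBE2M lay just above control without overlap. The log2 fold change was 1.16 ± 0.07 in siNAE1 (edgeR adjusted p = 1.5e-15), a 2.23-fold level, 0.59 ± 0.07 in siURM1 (8.6e-08) and 0.16 ± 0.07 in siUBE2M, which did not pass (0.06). siNAE1 was above siUBE2M by 1.00 ± 0.07 (1.5e-13) and above siURM1 by 0.56 ± 0.07 (2.9e-07), and siUBE2M was below siURM1 by -0.44 ± 0.07 (2e-05). IMPDH1 had the widest range of group means among the members. The genes whose centred log2 levels were nearest to it over the 11 libraries were JADE2 (root mean square difference 0.0912), TRIM62 (0.0945) and FLNA (0.0952), and PRPS1 was at rank 52 of 10467 (0.159).

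IMPDH2 (3:49024325-49029408, minus strand), the isozyme that predominates in proliferating cells, changed little. It was at 157, 172 and 164 FPKM in control, 170, 178 and 180 in siNAE1, 184, 184 and 194 in siUBE2M and 179 and 171 in siURM1. Only siUBE2M was clear of the controls, with a log2 fold change of 0.19 ± 0.06 (edgeR adjusted p = 0.0054). The values in siNAE1 (0.11 ± 0.06, 0.11) and siURM1 (0.09 ± 0.06, 0.26) did not pass, and no pair of knockdowns differed past the threshold.
IMPDH2 accounted for 89.3% ± 0.532 of the summed IMPDH level in control (n = 3), 80.1% ± 0.916 in siNAE1, 89.5% ± 0.242 in siUBE2M and 85.9% and 84.9% in the siURM1 libraries. The siNAE1 share differed from control by -9.18 percentage points and did not overlap it (exact two-sided permutation p = 0.10, the smallest possible). siURM1 also lay below control without overlap (p = 0.20, the smallest possible), and siUBE2M overlapped control (p = 0.60). The summed level was 184 ± 7.73 FPKM in control, 219.9 ± 7.58 in siNAE1 and 209 ± 5.96 in siUBE2M, and 209 and 201 in siURM1.

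Between knockdowns, 6 of the 10 members differed past adjusted p under 0.05 for siNAE1 against siUBE2M, where 44.3% of all genes did. The count was 5 of 10 for siNAE1 against siURM1 (38.6% of all genes) and 8 of 10 for siUBE2M against siURM1 (35.0%). In the last comparison 7 of the 8 were lower in siUBE2M, and ATIC was higher, with the calls of PFAS and PRPS2 lost in some settings as given above. No member met the DEG rule in these comparisons, which 7.84%, 6.76% and 5.41% of all genes met, although IMPDH1 in siNAE1 against siUBE2M lay at the limit. Of 60 member comparisons, none that was called changed its direction in any of the 16 alternative settings, DESeq2 among them.

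The E-box CACGTG, the letters bound by MYC and MAX, was looked for in the RefSeq promoter windows of GRCh38.p14. It reads the same on both strands. Entries were matched for 8 of the 10 members, all but ADSL and IMPDH2, and 3 members held it (PPAT, PAICS and ATIC), against 8.77% of 27305 genes with an entry. The windows around it are printed because MYC was among the regulators measured, with the E-box in capitals and each read in the direction of its gene.
PPAT: agatttcCACGTGcagcaaa
PAICS: gtatttgctgCACGTGgaaa
ATIC, before the start: ggcgggcCACGTGataagcc
ATIC, after the start: acctgcgCACGTGgtgccgc
The PPAT window is chr4:56435785-56435804 on the minus strand and the PAICS window chr4:56435782-56435801 on the plus strand. They hold the same genomic E-box, 182 bases before the PPAT start and within the first transcribed bases of PAICS. The ATIC windows are chr2:215312006-215312025 and chr2:215312081-215312100 on the plus strand, with the E-box beginning 46 bases before the RefSeq start and at base 30 after it. A match is only a description of the letters.
MYC itself was at 52.2 to 58.4 FPKM in control, 75.5 to 80.4 in siNAE1, 33.0 to 34.0 in siUBE2M and 85.9 and 84.4 in siURM1. Its log2 fold changes were 0.50 ± 0.06 (edgeR adjusted p = 1.7e-08), -0.72 ± 0.06 (3.4e-11) and 0.63 ± 0.07 (2.8e-09), so it was below control in siUBE2M and above it in the other knockdowns. PPAT and PAICS were lowest in siUBE2M too, while ATIC was lowest in siURM1, where MYC was above control. The part of MYC in these values was not tested. Of the 5 regulators (MYC, MAX, MLX, MNT and ATF4), 4 rose and none fell in siNAE1, 2 rose and 3 fell in siUBE2M, and 2 rose and 1 fell in siURM1, beside 54.7%, 45.3% and 41.6% of all genes called in either direction. MLX, a partner in carbohydrate-responsive transcription, rose in all (0.76 ± 0.08, 0.69 ± 0.08 and 0.49 ± 0.09, with adjusted p of 6.1e-10, 9.7e-09 and 2.2e-05).

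Besides the members ADSL, IMPDH1 and IMPDH2 described above, the list for the branches from IMP to AMP and GMP held ADSS, ADSSL1 and GMPS. Of these 3, 1 rose and 1 fell in siNAE1, none passed the edgeR test in siUBE2M (smallest adjusted p 0.6) and 1 rose in siURM1, beside 54.7%, 45.3% and 41.6% of all genes called. ADSS (the older symbol of ADSS2), the main adenylosuccinate synthetase, was at 0.83 ± 0.07 in siNAE1 (3.9e-12), -0.04 ± 0.07 in siUBE2M (0.7) and 0.30 ± 0.07 in siURM1 (0.0015). The muscle form ADSSL1 fell in siNAE1 (-0.49 ± 0.17, 0.014), and GMPS, which makes GMP, passed in none of the 3 (adjusted p = 0.27, 0.84 and 0.61).

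Salvage and interconversion genes that passed in siNAE1 were mostly higher. Of 17 in the list 14 were tested, and 8 rose and 2 fell in siNAE1, 1 rose and 2 fell in siUBE2M, and 3 rose and 3 fell in siURM1. Among all genes tested 27.6% were higher and 27.1% lower in siNAE1, and the counts in siUBE2M and siURM1 were below or close to the background (45.3% and 41.6% called in either direction). The median log2 fold changes were 0.35, -0.04 and -0.04. PNP, purine nucleoside phosphorylase, was at 14.9, 15.0 and 14.9 FPKM in control, 32.7, 33.8 and 34.2 in siNAE1, 16.1, 15.2 and 16.5 in siUBE2M and 27.9 and 28.9 in siURM1. It rose in siNAE1 (1.17 ± 0.07, adjusted p = 5.4e-16) and siURM1 (0.93 ± 0.07, 3.8e-12) and did not pass in siUBE2M (0.10 ± 0.07, 0.25), by edgeR. The AMP deaminases AMPD3 and AMPD2 rose in siNAE1, by 1.41 ± 0.35 (0.0009) and 0.91 ± 0.07 (6.7e-13), although AMPD3 rested on 11 to 52 counts per library. AMPD2 also rose in siUBE2M (0.29 ± 0.07, 0.00072) and did not pass in siURM1 (-0.15 ± 0.08, 0.12). AMPD3 passed in neither (0.96 and 0.98). ITPA, which removes ITP from the nucleotide pool, was at 0.61 ± 0.08 in siNAE1 (2.4e-07), 0.02 ± 0.08 in siUBE2M (0.84) and 0.44 ± 0.09 in siURM1 (0.00026). APRT, which salvages adenine with PRPP, rose in siNAE1 (0.47 ± 0.07, 3.2e-07), fell in siUBE2M (-0.58 ± 0.07, 1.5e-08) and was slightly lower in siURM1 (-0.19 ± 0.07, 0.038). APRT is named here after its values were seen.

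Folate metabolism supplies the one-carbon units used by GART and ATIC, although not every gene in the folate list makes them. Most genes of the list that passed the test were lower. All 13 in the list were tested, and 7 fell and 2 rose in siNAE1, 9 fell and 1 rose in siUBE2M, and 8 fell and 1 rose in siURM1. Among all genes tested 27.1%, 22.6% and 20.8% were lower. Their median log2 fold changes were -0.20, -0.36 and -0.33. ALDH1L2, the mitochondrial 10-formyltetrahydrofolate dehydrogenase, was at 24.9, 23.2 and 27.1 FPKM in control, 3.28, 3.17 and 2.62 in siNAE1, 10.5, 10.2 and 8.04 in siUBE2M and 14.5 and 12.97 in siURM1. No groups overlapped, and the log2 fold changes were -3.04 ± 0.10 (adjusted p = 2e-22), -1.39 ± 0.08 (1.4e-14) and -0.87 ± 0.09 (5e-09), by edgeR. The cytosolic form ALDH1L1 was at only 8 to 52 counts per library and also fell in all 3 (-1.93 ± 0.38, -0.97 ± 0.34 and -1.34 ± 0.40, with adjusted p of 7.1e-05, 0.019 and 0.0068).

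**Figure D4:**
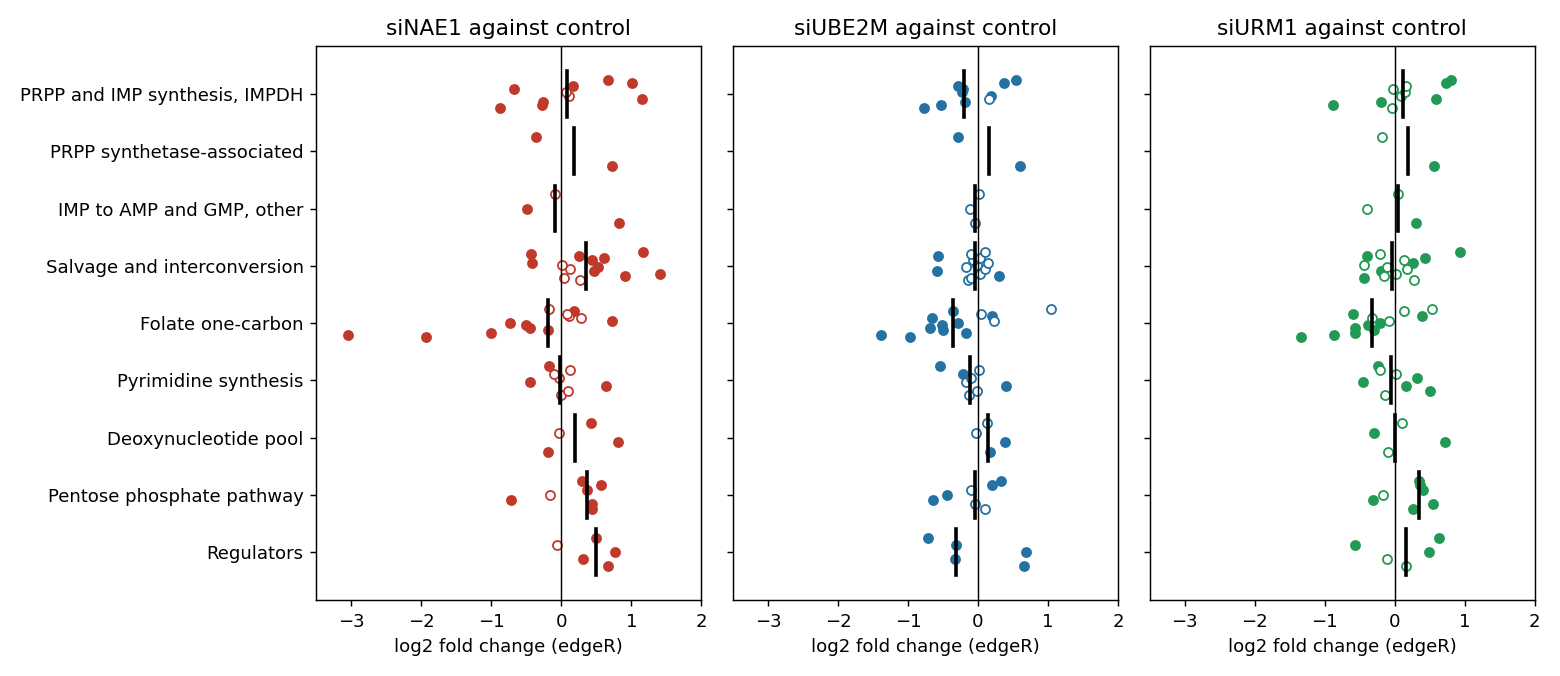
Log2 fold change against control (x axis, edgeR) of each tested gene in 9 gene lists (y axis) for siNAE1, siUBE2M and siURM1. Filled points have an adjusted p under 0.05, open points do not, and black bars are list medians. The folate list has its median left of 0 in all 3 panels, and the salvage list has its median right of 0 in siNAE1 only.

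The supply of ribose and the other nucleotide routes are read beside the 54.7%, 45.3% and 41.6% of all genes called in siNAE1, siUBE2M and siURM1. In the pentose phosphate pathway, which makes ribose 5-phosphate, 5 of 7 genes rose and 1 fell in siNAE1 and in siURM1, and 2 rose and 2 fell in siUBE2M. TALDO1, transaldolase, rose in all 3 (0.57 ± 0.07, 0.20 ± 0.07 and 0.36 ± 0.08, with edgeR adjusted p of 1.8e-08, 0.018 and 0.0002), and PGLS, the lactonase, fell in all 3 (-0.72 ± 0.09, -0.64 ± 0.08 and -0.31 ± 0.09, with adjusted p of 1.8e-08, 2.2e-07 and 0.0087). Of 8 pyrimidine genes, 1 rose and 2 fell in siNAE1 and in siUBE2M, and 3 rose and 2 fell in siURM1. CTPS1, CTP synthetase, rose in all (0.64 ± 0.06, 0.39 ± 0.06 and 0.16 ± 0.06), with adjusted p of 5.4e-11, 1.4e-06 and 0.041. UMPS fell in all (-0.17 ± 0.07, -0.55 ± 0.07 and -0.24 ± 0.08), with adjusted p of 0.034, 6.9e-08 and 0.012. Among 4 genes of the deoxynucleotide pool (RRM1, RRM2 and RRM2B of ribonucleotide reductase, and SAMHD1, which breaks deoxynucleotides down), 2 rose and 1 fell in siNAE1, 2 rose in siUBE2M and 1 rose and 1 fell in siURM1. SAMHD1 was one of the rises in siNAE1 (0.42 ± 0.08, 2.2e-05). RRM2, the S-phase subunit of ribonucleotide reductase, rose in all 3 (0.81 ± 0.07, 0.38 ± 0.07 and 0.71 ± 0.08), with adjusted p of 1.9e-11, 4.8e-05 and 5.5e-09. In bulk libraries fewer cells of a kind and less RNA per cell cannot be told apart.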

How the data were processed

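The authors deposited gene counts and FPKM values for 11 libraries of polyadenylated, strand-specific RNA (dUTP method), with reads trimmed by fastp, aligned to GRCh38 with HISAT2 2.0.5 and counted with featureCounts 1.5.0-p3, per the labels. The counts were not normalized, and the authors scaled the deposited FPKM values by gene length and library size. The strand setting of the counting and the annotation release are not given in the sources used here, so overlapping antisense genes may share reads.

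Counts were tested with edgeR 4.0.16 in R 4.3.3 (TMM scaling, filterByExpr, quasi-likelihood F test, 1 fit over the 4 groups, Benjamini-Hochberg adjustment over 18368 genes). The SE is the log2 fold change divided by the square root of F. FPKM was used for levels between genes. Likeness was the root mean square difference of centred log2 CPM with a prior count of 2. Isozyme shares were tested with scipy 1.17.1. The edgeR script was tested on simulated data. The alternatives were DESeq2 1.42.0, RLE scaling, no filter, 2 groups per fit, a replicate block and leaving out each library. Beside the members, the text names the targeted genes, genes overlapping or starting within 1000 bases of a member, the nearest profiles of PPAT and IMPDH1, and list genes that were DEGs, with at most 2 more per list by the size of their change in either direction, so that other called list genes are given only as counts. SLC25A32, which the rule also takes, was left out at 1 to 19 counts per library. Some other genes that the rule takes are not reported here, among them antisense, noncoding and pseudogene neighbours with few counts. The members and lists were chosen with earlier results of these data known. Depth was 11733163 to 16321391 counts per library.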

Additional observations from a re-analysis of the deposited data

Results flagged for a closer look

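PPAT and PAICS were picked out because their changes against control had opposite signs in siUBE2M and another knockdown, with the direct test between the knockdowns passed. The rule also needed both changes against control to pass, or libraries clear of control in opposite directions by CPM. PAICS in siNAE1 met only the CPM part. In FPKM its lowest siNAE1 library, at 72.3, was below the highest control, at 72.4. PPAT in siNAE1 was 0.46 above siUBE2M on the log2 scale (edgeR adjusted p = 2.9e-06), and siUBE2M was -0.45 relative to siURM1 (2.5e-05). PAICS in siNAE1 was 0.29 above siUBE2M (5.6e-05), and siUBE2M was -0.37 relative to siURM1 (1.4e-05). The fall in siUBE2M passed against control for both genes, whereas the rise in siNAE1 and siURM1 did not pass for PAICS, and for PPAT passed only in siNAE1, where the call was lost in 8 of 16 alternative settings. In siURM1 the rise passed in 5 of 16 alternative settings for PAICS and in 2 of 16 for PPAT. No group had the 4 libraries that a test for a library far from the rest needs.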

How the results depend on the processing

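Of 60 member comparisons, 51 kept their side of the threshold in all 16 alternative settings, and no called value changed its direction. The number of member DEGs in siNAE1, 2, was 1 with DESeq2 and with 2 groups per fit, where PRPS1 lay just below a log2 fold change of 1, and 1 to 2 with 1 library left out (1 without siNAE1 replicate 2 or 3). For siNAE1 against siUBE2M it was 0 to 1 with 1 library left out (1 without siNAE1 replicate 1, siNAE1 replicate 2, siUBE2M replicate 3 or siURM1 replicate 2), where IMPDH1 crossed the same limit. The median of the members in siUBE2M, -0.1994, was -0.2041 with DESeq2, -0.1947 with no filter, -0.2053 with 2 groups per fit and -0.2082 to -0.1684 with 1 library left out. In siURM1, 0.1182 became 0.1230 with no filter, 0.1262 with 2 groups per fit and 0.1022 to 0.1484 with 1 library left out.

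Correlations of the deviations of libraries with the same replicate number were low (15 pairs, -0.0657 to 0.0787). The deviations were taken from the mean of each small group, so these pairs are not independent. Whether cultures with the same number were handled together cannot be told from them. With the replicate number as a block the siURM1 median was 0.1226, 6 members were called in siURM1 instead of 5, and 7 instead of 8 in siUBE2M against siURM1.

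The PRPS1 share in siURM1 differed from control by -0.828 percentage points, and by -2.26 to 0.608 with 1 library left out, the sign turning without siURM1 replicate 2. The IMPDH2 share in siUBE2M differed by 0.243, and by -0.0609 to 0.435, turning without control replicate 1. Neither difference was past a threshold. With 2 siURM1 libraries, p-values of the shares could not go below 0.20.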
